A study of Homo sapiens with 6 samples.

Results

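The kinases that phosphorylate SR proteins, the serine and arginine rich splicing factors, were examined as a group of 10 genes: CLK1, CLK2, CLK3 and CLK4, SRPK1 and SRPK2, and DYRK1A, DYRK1B, DYRK2 and DYRK3. They were taken from the table by gene name, and all 10 were found among its 35716 genes and all 10 were among the 15202 abundant enough to be tested. RNA-seq after poly(A) selection was done on MIA PaCa-2 cells, a long-established line grown from a human pancreatic ductal tumour and labelled as wild type. Of 6 libraries, 3 came from untreated cells in medium with serum and 3 from cells given 10 nM triptolide for 24 h. Triptolide is a plant diterpenoid that binds a subunit of the transcription factor TFIIH. Whether replicate libraries stem from separate cultures is not stated, so a p-value here measures the spread among these libraries alone, and that spread may be technical. Although the design text names the triptolide group as a control, samples were grouped by their own treatment labels.

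SR proteins bind exons and help to place the splicing machinery, and they work only while their serine residues are phosphorylated to the right degree. SRPK kinases add phosphates mostly in the cytoplasm, which lets SR proteins be carried into the nucleus, while CLK kinases add further phosphates in the nucleus and release SR proteins from the speckles that store them. DYRK kinases activate themselves by phosphorylating their own activation loop, and they act on splicing factors as well as on cell cycle regulators. CLK transcripts are known to be held back in the nucleus with unspliced introns and to be spliced in response to stress, which counts per gene do not show.

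In these libraries no kinase of the group passed the test between triptolide and untreated cells, which 15.9% of all tested genes passed. The transcript nearest to a call was CLK1, which was higher in 2 of the 3 triptolide libraries and at the untreated level in the other one. CLK3 and DYRK1B were higher in every triptolide library than in any untreated one, by small amounts, as were 19.8% of all tested genes by any amount. In each of the 10 kinases the group means differed by less than the range of the wider group. The same was not counted over all tested genes, so it does not show that these kinases were unchanged. Beside these kinases, 2 of 11 tested SR protein genes fell, SRSF1 and SRSF3, the latter not under 3 of 16 other ways of processing. Of 12 tested related kinases 1 fell, SRPK3, the SRPK gene outside the group. Of all tested genes, 5.82% fell.

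Total counts ranged from 16302961 to 23262713 per library. Over all tested genes, 1527 rose and 884 fell at an edgeR adjusted p under 0.05, so 63.3% of the calls were higher, against 73.8% with library totals, 90.0% with scaling on ribosomal protein genes and 45.4% with an offset for GC content. The median log2 fold change over all tested genes was -0.0040, and 0.17 under the ribosomal protein scaling. Triptolide replicate 1 and untreated replicate 3 lay apart from the other libraries of their groups on the second principal component, which held 15.4% of the variance. Across genes, the GC content of the transcript correlated with the deviation of a library from the gene mean at a Spearman rho of 0.64 in triptolide replicate 1, of 0.05 in untreated replicate 3 and between -0.41 and -0.14 in the other 4 libraries, as a description over genes that share a library. Among markers of the labelled cell type, KRT8 and KRT18 were abundant, at 1894 and 869.9 CPM (counts divided by the scaled library size) in untreated cells, and SOX9 stood at 77.7 CPM, while EPCAM and CDH1 were below 0.1 CPM in untreated cells. Of 6 tested ductal markers, 0 rose and 1 fell, KRT18, to 503 CPM with triptolide (edgeR adjusted p = 0.0123). None of the markers of acinar and islet cells was abundant enough to be tested. Of 20 tested trophoblast genes, 18 rose and 0 fell. Their list summed to between 27.4 and 29.96 CPM in the untreated and between 588 and 965 CPM in the triptolide libraries, the highest being triptolide replicate 1, and HSD3B1, PSG2, PSG6, GCM1, ERVFRD-1 and LGALS13 had no count in untreated cells. Of 5 tested blood genes, 4 rose and 0 fell, with sums from 3.27 to 4.37 and from 12.9 to 24.7 CPM. Of 14 tested fibroblast genes, 0 rose and 8 fell. The sums of that list overlapped between groups, from 1355 to 1713 CPM untreated and from 1187 to 1447 CPM with triptolide. What part these other transcripts have in the kinase values was not tested. In bulk RNA, fewer cells that hold a transcript and less of it per cell cannot be told apart.

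CLK1 and CLK4 are close relatives in the LAMMER branch of the family, and their upstream sequences are shown because CLK1 had the largest log2 fold change of the group and CLK4 one near 0. RefSeq entries were found for 9 of the 10 genes by symbol, on build GRCh38.p14. The 250 bases before the annotated start are given 5′ to 3′ on the strand of the gene, with capitals for every match to a searched motif. CLK1 has 2 annotated starts, and the one further upstream is shown, at chr2:200864659-200864908 on the minus strand, beside CLK4 at chr5:178627051-178627300, also on the minus strand.
CLK1: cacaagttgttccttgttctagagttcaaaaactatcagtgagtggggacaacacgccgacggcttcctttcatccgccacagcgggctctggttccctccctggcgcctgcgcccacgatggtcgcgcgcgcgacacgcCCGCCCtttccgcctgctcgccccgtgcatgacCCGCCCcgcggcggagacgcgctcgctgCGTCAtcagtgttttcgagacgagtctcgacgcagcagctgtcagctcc
CLK4: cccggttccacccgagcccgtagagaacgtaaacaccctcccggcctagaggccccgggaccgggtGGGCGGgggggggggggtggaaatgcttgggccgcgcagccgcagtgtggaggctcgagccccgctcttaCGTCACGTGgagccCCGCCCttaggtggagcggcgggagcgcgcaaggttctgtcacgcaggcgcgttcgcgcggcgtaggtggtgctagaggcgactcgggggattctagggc

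Both windows are rich in G and C, at 64.4% for CLK1 and 71.2% for CLK4. Each holds 2 matches to the GC box GGGCGG, which 42.3% of 27305 RefSeq promoters hold at this length, with 1 entry taken per gene symbol. Each also holds 1 match to TGACG, the core of the cAMP response element, held by 21.7% of those promoters. In CLK4 the TGACG match overlaps the only match to the E-box CACGTG, which 6.49% of promoters hold and the CLK1 window does not. Searches on both strands for the TATA box (TATAAA), for the CCAAT box, for the full cAMP response element TGACGTCA, the heat shock core GAANNTTC, the AP-1 letters TGANTCA, the ETS letters CCGGAAGT and an NRF1-type site gave no match in either window. A match is a description of letters, and nothing in these counts measures binding.

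Levels of different kinases were compared per length, as CPM per kilobase of the median protein-coding transcript in GENCODE 29. In untreated cells CLK2 and CLK3 led with levels of 27.5 ± 1.73 and 27.2 ± 1.09 CPM per kb (SD, n = 3 libraries), followed by CLK1 at 24.5 ± 1.5 and SRPK1 at 21.7 ± 3.32 CPM per kb. The range of CLK2 overlapped those of CLK3 and CLK1, and the range of CLK1 overlapped that of SRPK1, while CLK1 and CLK3 did not overlap. SRPK2 and DYRK1A came next at 14.8 ± 1.99 and 13.1 ± 1.95 CPM per kb, with overlapping ranges, and CLK4 and DYRK3 followed at 8.92 ± 0.84 and 7.85 ± 0.83 CPM per kb, also overlapping. DYRK2, at 3.14 ± 0.39 CPM per kb, and DYRK1B, at 2.46 ± 0.14 CPM per kb, were lowest, and their ranges did not overlap. With triptolide CLK1 had the highest mean, 34.3 ± 9.06 CPM per kb, with a range of 24.1 to 41.5 that overlapped that of CLK3, at 31.9 ± 3.82. The order depends on the length used: over all annotated exons CLK3 is 20443 bases long, and its untreated level was 2.97 CPM per kb, below the 15.9 of CLK2. By that length DYRK1A, with 26602 bases, was lowest of the group at 1.42 CPM per kb, below DYRK1B at 1.72.

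**Figure D1:**
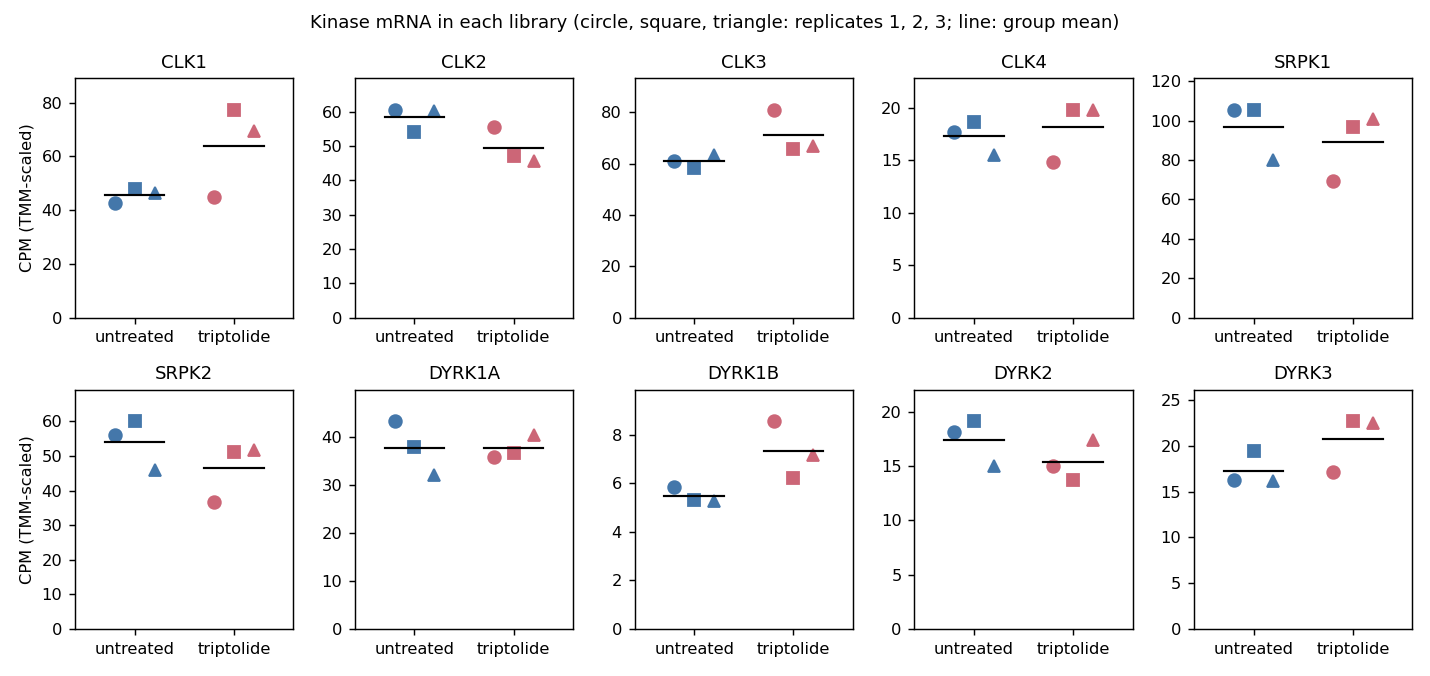
CPM of each kinase in the 6 libraries, one panel per gene, with circles, squares and triangles for replicates 1, 2 and 3 and a line at the group mean. CLK1 stands at 77.4 and 69.6 CPM in triptolide replicates 2 and 3, and at 45.0 CPM in triptolide replicate 1, inside the untreated range.

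CLK1 (ENSG00000013441), a nuclear SR protein kinase that also acts on its own splicing, stood at 42.6, 48.0 and 46.4 CPM in untreated replicates 1, 2 and 3 and at 45.0, 77.4 and 69.6 CPM in triptolide replicates 1, 2 and 3. Triptolide replicates 2 and 3 were 1.70 and 1.52 times the untreated mean and triptolide replicate 1 was 0.99 times, so the groups overlapped. The log2 fold change was 0.49 ± 0.20 (SE), a 1.40-fold difference with a 95% interval from 1.03 to 1.90, and it did not pass (edgeR adjusted p = 0.124). Of all tested genes, 31.4% had a larger absolute log2 fold change. Without triptolide replicate 1 the log2 fold change was 0.70 with an adjusted p of 0.00923, where 16.2% of tested genes were called in either direction. Over the other 5 ways of leaving out 1 library it lay between 0.34 and 0.52 and passed in none, the lowest value being that without triptolide replicate 2. With the GC offset it was 0.63 with an adjusted p of 0.00814, where 24.3% of genes were called. CLK1 has the lowest GC content of the 10 kinases, 35.7% against a median of 49.1% over tested genes.

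CLK4 (ENSG00000113240), the relative of CLK1 shown above, had counts in CPM of 17.7, 18.6 and 15.5 untreated and 14.9, 19.7 and 19.8 with triptolide. Triptolide replicate 1 was the lowest of the 6 libraries and the other triptolide libraries were the highest. Its log2 fold change was 0.07 ± 0.18 (edgeR adjusted p = 0.821), with an interval for the fold from 0.80 to 1.38. No stretch of 75 bases was shared between annotated transcripts of CLK1 and CLK4, nor between any of the 45 pairs of the 10 kinases.

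CLK2 (ENSG00000176444), which acts on SR proteins and also in insulin signalling, stood at 60.6, 54.1 and 60.3 CPM untreated and at 55.5, 47.1 and 45.6 CPM with triptolide. Triptolide replicates 2 and 3 were below every untreated library and triptolide replicate 1 was between them. The log2 fold change was -0.24 ± 0.16 (edgeR adjusted p = 0.340), with an interval for the fold from 0.67 to 1.08. With the GC offset the log2 fold change of CLK2 was -0.38 (edgeR adjusted p = 0.0546), where 24.3% of genes were called. Without untreated replicate 3 and triptolide replicate 1, a choice made after seeing the data, it was -0.30 (edgeR adjusted p = 0.0663). The processed pseudogene CLK2P1, which shares 1.68% of the 75-base stretches of CLK2, had 0.89 CPM in untreated and 0.28 CPM in triptolide cells and was too low to be tested. HCN3, an ion channel gene on the opposite strand that overlaps CLK2 without common exon bases, rose by 0.99 on the log2 scale.

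CLK3 (ENSG00000179335), another nuclear kinase of the CLK family, stood at 60.8, 58.3 and 63.2 CPM untreated and at 81.0, 65.8 and 66.7 CPM with triptolide. Every triptolide library was above every untreated one, and triptolide replicate 1 was the highest. The log2 fold change was 0.23 ± 0.16 (edgeR adjusted p = 0.365), with an interval for the fold from 0.92 to 1.49. The gene shares 701 exon bases with EDC3 on the opposite strand, and without a known strand setting the reads there cannot be assigned with certainty. EDC3 itself had 40.6 CPM in untreated and 46.9 CPM in triptolide cells, and did not pass. The same limit holds for other kinases that share exon bases with genes on the opposite strand. These are SRPK1 with 265 bases, SRPK2 with 98 and 136, DYRK1A with 360, DYRK2 with 594 and DYRK3 with 23.

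Summed over the 4 CLK genes, the level was 182, 179 and 185 CPM in the untreated and 196, 210 and 202 CPM in the triptolide libraries, so the groups did not overlap. Among single tested genes, the groups did not overlap in 36.7%, 19.8% being higher, and the share among sums of 4 genes was not counted. The make-up of the sum differed between triptolide libraries. CLK1 gave 23.4, 26.8 and 25% of it in the untreated libraries, 22.9% in triptolide replicate 1 and 36.9 and 34.5% in triptolide replicates 2 and 3. Triptolide replicate 1 had the highest CLK3 and the lowest triptolide CLK1 of the libraries. These sums and shares were not tested.

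SRPK1 (ENSG00000096063), the main cytoplasmic SR protein kinase, had the highest CPM of the group, at 106, 105 and 79.9 untreated and 69.4, 96.9 and 101 with triptolide. SRPK2 (ENSG00000135250), its relative with a similar role, stood at 56.1, 60.1 and 46.0 CPM untreated and at 36.6, 51.1 and 51.6 CPM with triptolide. In both genes triptolide replicate 1 was the lowest library and untreated replicate 3 the next lowest, and the groups overlapped. The log2 fold change of SRPK1 was -0.12 ± 0.19 (edgeR adjusted p = 0.703) and that of SRPK2 -0.22 ± 0.19 (edgeR adjusted p = 0.463). The intervals of the fold ran from 0.69 to 1.22 for SRPK1 and from 0.65 to 1.14 for SRPK2. SRPK1 changed sign, to 0.04 on the log2 scale, without triptolide replicate 1 and with scaling on ribosomal protein genes. The ratio of SRPK1 to SRPK2 in CPM stayed between 1.73 and 1.95 over the 6 libraries.

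DYRK1A (ENSG00000157540), a kinase of the Down syndrome region that acts on SR proteins and starts the assembly of the DREAM repressor complex, stood at 43.2, 37.7 and 32.0 CPM untreated and at 35.8, 36.5 and 40.3 CPM with triptolide. All triptolide libraries lay inside the untreated range. Its log2 fold change was -0.0046 ± 0.17 (edgeR adjusted p = 0.990), with an interval for the fold from 0.77 to 1.29, and its sign turned under several settings.

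DYRK1B (ENSG00000105204), a kinase linked to quiescence and to survival of pancreatic cancer cells, had the lowest CPM of the group. It stood at 5.83, 5.32 and 5.29 CPM untreated and at 8.56, 6.21 and 7.15 CPM with triptolide, with 96 to 104 counts per untreated and 136 to 179 counts per triptolide library. Every triptolide library was above every untreated one, and triptolide replicate 1 was the highest. The log2 fold change was 0.41 ± 0.20 (edgeR adjusted p = 0.192), with an interval for the fold from 0.98 to 1.80. DYRK1B has the highest GC content of the 10 kinases, 65.7%, and with the GC offset its log2 fold change was 0.21 (adjusted p = 0.338).

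DYRK2 (ENSG00000127334), which is both a kinase and a scaffold of a ubiquitin ligase, stood at 18.1, 19.2 and 15.0 CPM untreated and at 15.1, 13.7 and 17.4 CPM with triptolide. The groups overlapped, and the log2 fold change was -0.18 ± 0.18 (edgeR adjusted p = 0.538), with an interval for the fold from 0.67 to 1.16. DYRK3 (ENSG00000143479), which dissolves condensates such as stress granules and splicing speckles, stood at 16.3, 19.4 and 16.2 CPM untreated and at 17.1, 22.7 and 22.4 CPM with triptolide. Triptolide replicates 2 and 3 were above every untreated library and triptolide replicate 1 was not, the same arrangement as in CLK1. The log2 fold change of DYRK3 was 0.27 ± 0.18 (edgeR adjusted p = 0.349), with an interval for the fold from 0.92 to 1.58. The 4 DYRK genes summed to 83.4, 81.6 and 68.5 CPM untreated and 76.5, 79.2 and 87.2 CPM with triptolide.

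**Figure D2:**
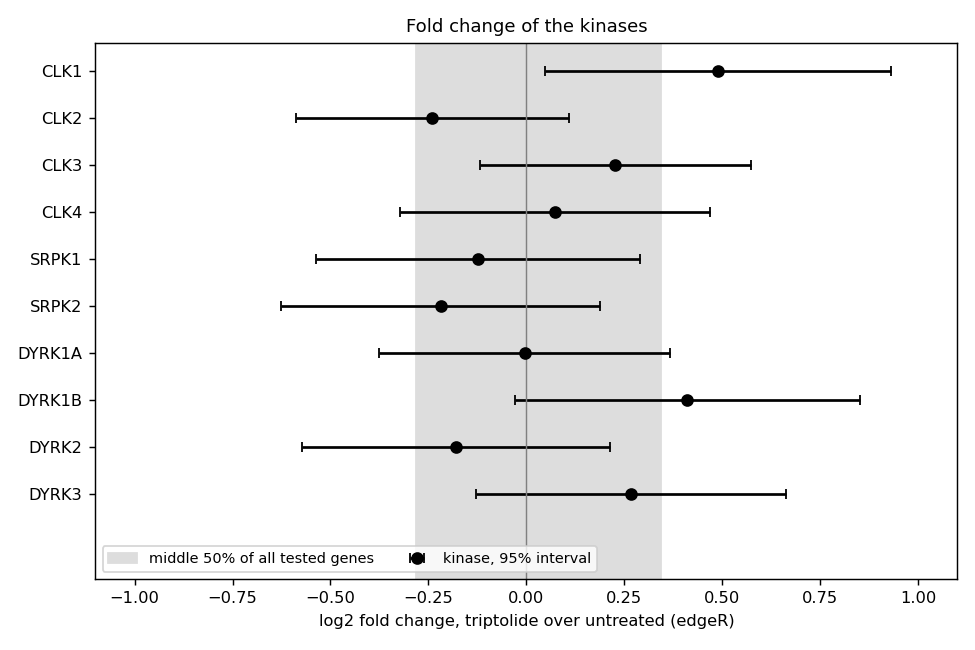
Log2 fold change of each kinase, triptolide over untreated, with its 95% interval from edgeR, over a grey band for the middle 50% of all tested genes. CLK1 at 0.49 and DYRK1B at 0.41 lie to the right of the band, and the other 8 lie inside it.

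Of the 10 kinases, 0 passed an edgeR adjusted p under 0.05, where 15.9% of all tested genes did. DESeq2 and limma-voom also called 0, where they called 17.3% and 15.7% of genes. No kinase was called with RLE size factors, library totals, ribosomal protein scaling, no filter, a minimum mean of 5 CPM or the replicate block, which called 15.9%, 14.9%, 8.78%, 9.24%, 8.95% and 15.6% of genes. The same held without untreated replicates 1, 2 and 3, with 10.5%, 8.55% and 12.4% of genes called, and without triptolide replicates 2 and 3, with 16.0% and 10.2%. At an unadjusted p under 0.05 there was 1, CLK1, and 30.9% of all tested genes. The groups did not overlap in 2 of the 10, CLK3 and DYRK1B, both higher with triptolide, and in 36.7% of all tested genes, 19.8% being higher. In 5 kinases the log2 fold change was positive and in 5 negative, with a median of 0.03 beside -0.0040 over all tested genes. All 10 intervals lay within a 2-fold difference in either direction, while those of CLK1, DYRK1B and DYRK3 reached past 1.5-fold higher and those of CLK2 and SRPK2 past 1.5-fold lower. In simulated data of this design with 15168 tested genes, 50 genes were changed at each fold. The share called was 16% for a 1.5-fold change and 74% for a 2-fold change. Far fewer genes were changed there than were called here, and genes shared no deviation of a library. These shares therefore do not tell how often such a change in the kinases would be called.

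**Figure D3:**
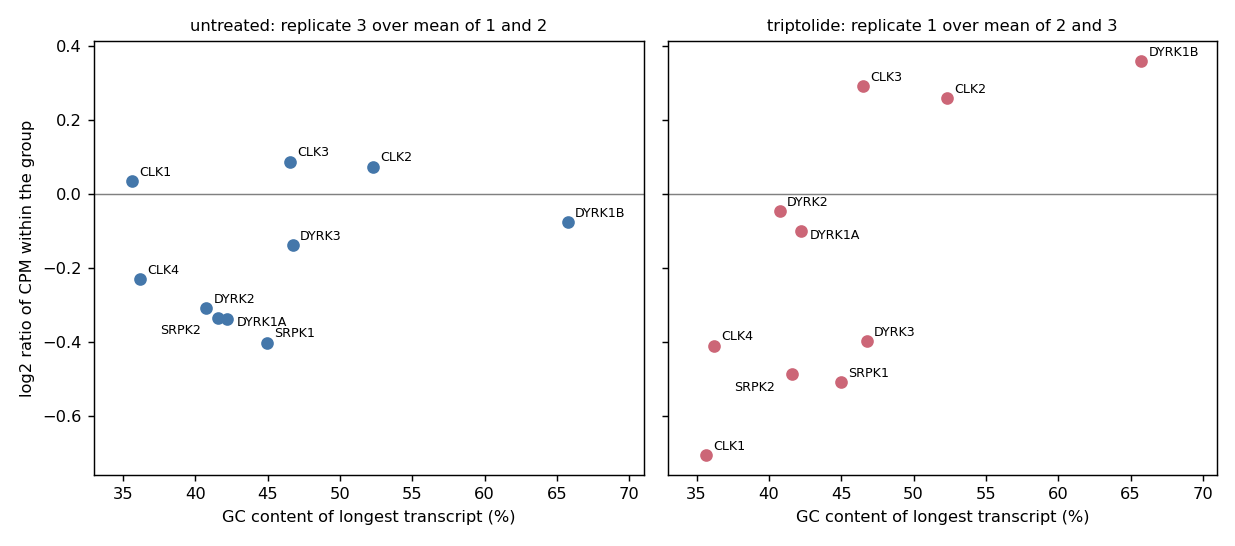
Log2 ratio of CPM within a group against the GC content of the longest transcript, one point per kinase, for untreated replicate 3 over the mean of replicates 1 and 2 (left) and triptolide replicate 1 over the mean of replicates 2 and 3 (right). In triptolide replicate 1 CLK1 is lowest at -0.71 and DYRK1B, the kinase with the most GC, highest at 0.36.

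Triptolide replicate 1 differed from the other triptolide libraries in both directions. Its log2 ratio of CPM to the mean of triptolide replicates 2 and 3 was -0.71 for CLK1, -0.51 for SRPK1, -0.49 for SRPK2, -0.41 for CLK4 and -0.40 for DYRK3. The ratio was 0.36 for DYRK1B, 0.29 for CLK3 and 0.26 for CLK2. The 7 kinases other than CLK2, CLK3 and DYRK1B were below the mean of the other triptolide libraries. CLK3 and DYRK3, with a similar GC content of 46.5% and 46.8%, went opposite ways. DYRK2 and DYRK1A, at 40.8% and 42.2% GC, had ratios of only -0.05 and -0.10. The 10 points share the same libraries, and the part of GC content in these ratios was not tested. With triptolide replicate 1 and untreated replicate 3 both left out, a choice made after seeing the data, CLK1 alone passed, with a log2 fold change of 0.70 and an adjusted p of 0.00427, where 24.3% of tested genes were called.

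**Figure D4:**
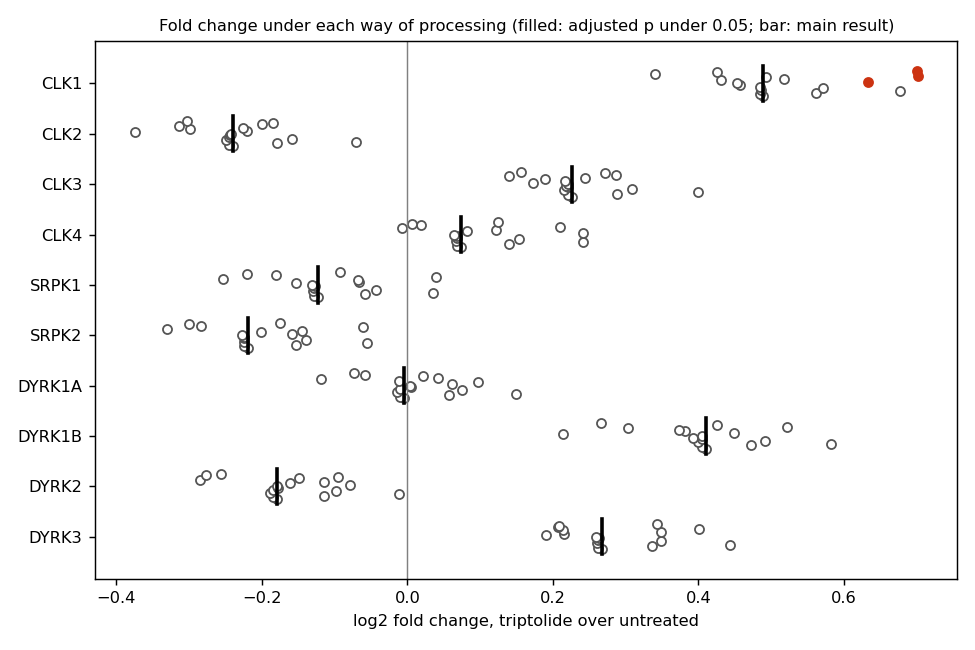
Log2 fold change of each kinase under the main processing (bar) and 16 alternatives (circles), filled where the adjusted p is under 0.05. CLK1 is filled under 3 alternatives, at 0.63, 0.70 and 0.70, and no other kinase is filled under any.

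The substrates were described from separate lists, which were chosen with earlier results of these data known. Of 11 tested SR protein genes, 2 fell and 0 rose, beside 5.82% of all tested genes that fell and 10.0% that rose, and the list had a median log2 fold change of -0.29. SRSF1, the founding SR protein and a substrate of SRPK1 and CLK1, stood at 104, 121 and 127 CPM untreated and at 21.2, 56.2 and 53.0 CPM with triptolide. It was lower in every triptolide library, and it fell by 1.43 on the log2 scale (SE 0.29, edgeR adjusted p = 0.00672), a call that held under all 16 alternatives. SRSF3, the smallest SR protein, stood at 331, 344 and 431 CPM untreated and at 164, 263 and 211 CPM with triptolide. SRSF3 fell by 0.79 on the log2 scale (SE 0.20, edgeR adjusted p = 0.0179), with adjusted p-values of 0.0528 without untreated replicate 3, 0.0563 without triptolide replicate 3 and 0.162 with scaling on ribosomal protein genes. In both genes triptolide replicate 1 was the lowest library. SRSF5 and SRSF6 stood at 227 and 133 CPM untreated and at 236 and 145 CPM with triptolide, and neither passed. SRSF2 was at 189 ± 45.3 and 121 ± 40.1 CPM (SD, n = 3 libraries each, edgeR adjusted p = 0.0910).

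Among 30 tested SR-related splicing proteins, 1 rose and 2 fell, beside 10.0% and 5.82% of all tested genes, with a median log2 fold change of -0.10. RSRP1, a small protein rich in arginine and serine, rose 1.97-fold, from 22.6 ± 0.19 to 44.4 ± 2.59 CPM (SD, n = 3 libraries each, edgeR adjusted p = 0.00173), and it held under all 16 alternatives. TRA2B, a splicing activator that binds with SR proteins and is phosphorylated by CLK kinases, stood at 389, 386 and 367 CPM untreated and at 257, 274 and 257 CPM with triptolide. TRA2B fell by 0.53 on the log2 scale (edgeR adjusted p = 0.0284), and it did not pass without untreated replicate 1 (adjusted p = 0.101), untreated replicate 2 (0.130) or triptolide replicate 3 (0.122), nor with a minimum mean of 5 CPM (0.0673), the GC offset (0.0910), a replicate block (0.110) or ribosomal protein scaling (0.418). RSRC1, an arginine and serine rich spliceosome protein, fell by 0.65 on the log2 scale to 26.8 ± 4.6 CPM (edgeR adjusted p = 0.0243). RSRC1 did not pass without untreated replicate 1 (adjusted p = 0.0738), untreated replicate 2 (0.0834) or triptolide replicate 3 (0.0955), nor with library totals (0.0508), a mean of at least 5 CPM (0.0615) or ribosomal protein scaling (0.354).

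Among 12 tested kinases of the wider CMGC group, to which all members of the 3 families belong, 0 rose and 1 fell, beside the same 10.0% and 5.82% of all tested genes. SRPK3, the SRPK relative known from muscle, stood at 4.93, 3.27 and 4.41 CPM untreated and at 1.32, 1.53 and 1.28 CPM with triptolide. It fell by 1.60 on the log2 scale (SE 0.25, edgeR adjusted p = 0.00155), every triptolide library was below every untreated one, and it was called in every alternative that tested it, the minimum of 5 CPM leaving it out. DYRK4, the remaining DYRK gene, stood at 16.1 ± 4.21 and 20.2 ± 5.57 CPM (SD, n = 3 libraries each, edgeR adjusted p = 0.377). PRPF4B, a kinase of the spliceosome, stood at 117 ± 13.3 and 97.9 ± 24.5 CPM (edgeR adjusted p = 0.431), and CDK12 and CDK13, kinases of RNA polymerase II, also did not pass.

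Of 17 tested genes for SR protein import, SRPK cofactors and phosphatases, 1 rose and 1 fell, against 10.0% and 5.82% over all tested genes, with a median log2 fold change of -0.10. TNPO3, which carries phosphorylated SR proteins into the nucleus, stood at 182 ± 31.4 and 156 ± 7.57 CPM (SD, n = 3 libraries each, edgeR adjusted p = 0.404). HSPA8, a chaperone that binds SRPK1 together with HSP90, fell by 0.74 on the log2 scale (edgeR adjusted p = 0.00982), but not when triptolide replicate 3 was left out (adjusted p = 0.0507) or under ribosomal protein scaling (0.0767). PHLPP1, a phosphatase of the AKT pathway that bears on SRPK1, rose by 0.62 on the log2 scale from 23.2 ± 3.46 to 35.6 ± 5.27 CPM (edgeR adjusted p = 0.0388). The call of PHLPP1 was lost without each library in turn except triptolide replicate 2, with adjusted p-values from 0.0603 to 0.133, and with a replicate block (0.0604) or ribosomal protein scaling (0.154).

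Of 24 tested partners and substrates of the DYRK kinases, 2 rose and 0 fell, where 10.0% and 5.82% of all tested genes did, with a median log2 fold change of -0.03. NFATC1, a transcription factor that DYRK1A sends out of the nucleus, rose by 0.61 on the log2 scale from 18.1 ± 1.37 to 27.7 ± 5.24 CPM (edgeR adjusted p = 0.0403). NFATC1 did not pass without any 1 untreated library or without triptolide replicate 3, with adjusted p-values from 0.0596 to 0.143, nor with a replicate block (0.0761) or ribosomal protein scaling (0.109). DCAF7, the adaptor that binds DYRK1A and DYRK1B, stood at 159 ± 30.1 and 197 ± 9.89 CPM (SD, n = 3 libraries each, edgeR adjusted p = 0.253), and LIN52, the DREAM subunit that DYRK1A phosphorylates, at 11.6 ± 2.10 and 12.3 ± 2.34 CPM (edgeR adjusted p = 0.808).

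**Figure D5:**
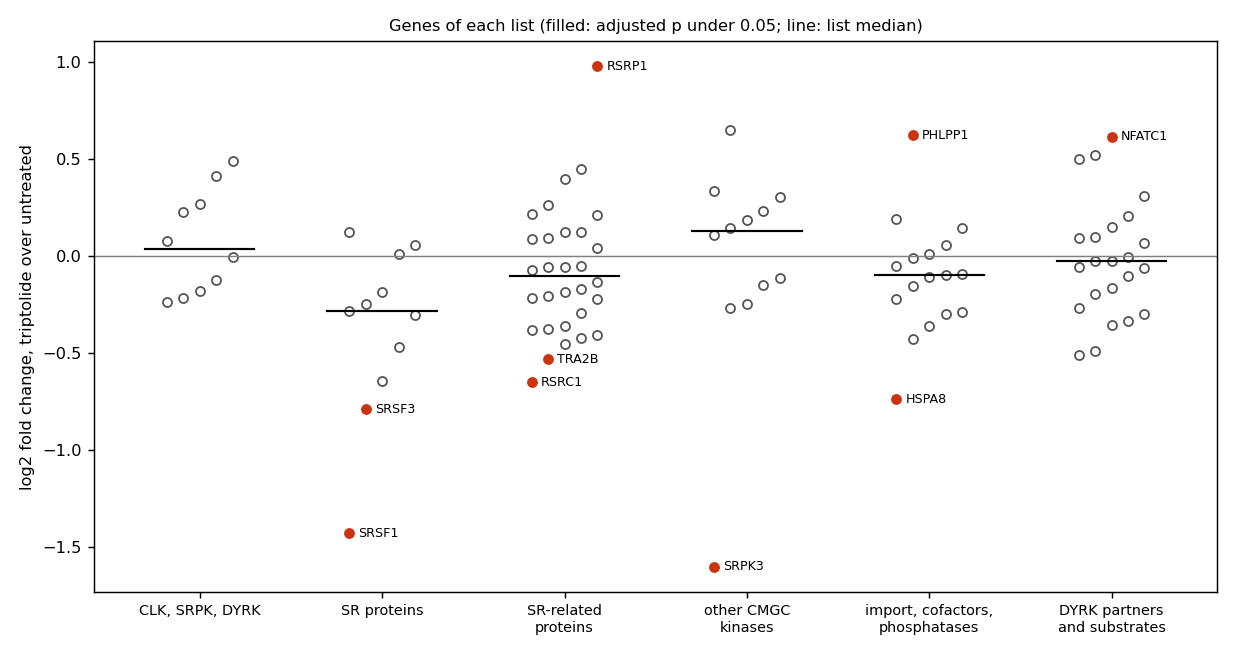
Log2 fold change of the tested genes reported here in the kinase group and in the lists of substrates, related kinases, cofactors and partners, filled and named where the adjusted p is under 0.05, with a line at the list median. SRSF1 at -1.43 and SRPK3 at -1.60 lie lowest, and no kinase of the CLK, SRPK and DYRK group is filled.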

How the data were processed

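The authors deposited whole-number read counts per Ensembl gene for 6 libraries. HISAT2 and featureCounts are named, without versions, per the submitters' processing notes. As to genome build, annotation, strand setting and multi-mapping reads, each is not given in the sources used here. No gene coordinate comes from the counts, and the promoter coordinates are those of RefSeq. Of 35716 IDs, 35639 matched a gene name. Transcript length and GC content come from GENCODE 29, and 99.2% of tested genes had a GC value.

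Genes were kept by filterByExpr, scaled by TMM and tested with the quasi-likelihood test of edgeR 4.0.16 in R 4.3.3 with group as the only term, and p-values were adjusted by Benjamini-Hochberg over all 15202 tested genes. A gene rose or fell at an adjusted p under 0.05. Intervals at 95% use the standard error taken from the F statistic and are not adjusted. CPM uses the TMM-scaled library size. Alternatives were other scalings, filters, DESeq2 1.42.0, limma-voom (limma 3.58.1), a GC offset, a replicate block and libraries left out. The fit was tested on simulated data. Figures were drawn with matplotlib 3.10.9.

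The kinases and lists were chosen with earlier results of these data known, so they give no independent support. All 10 kinases are named, and from each other list up to 3 called genes in each direction, by smallest adjusted p, plus CLK2P1 as a pseudogene of a kinase. Other list members named in the report, and HCN3 and EDC3, were chosen after their values were seen. The rule also named genes most like a called kinase, and as no kinase was called it named none. Some list members are not reported here, by name or in the plot of the lists, although the list counts and medians include them.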

Additional observations from a re-analysis of the deposited data

How the results depend on the processing

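The count of kinases called was 0 in the main result and under 13 of 16 alternatives, and 1 (CLK1) with the GC offset and, as a choice made after seeing the data, without untreated replicate 3 and triptolide replicate 1. Leaving out 1 library gave 0 to 1, the 1 being without triptolide replicate 1, and no alternative called a kinase lower. Over all genes, the minimum of 5 CPM, which tests fewer genes, gave 583 higher and 337 lower, 133 fell with ribosomal protein scaling, 2016 fell with the GC offset, and 1841 fell without both of the libraries named above. Leaving out libraries gave 953 to 1950 higher and 407 to 1841 lower, or 953 to 1580 and 407 to 1034 with 1 library left out. The cause was not tested.

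Signs turned in 3 kinases, with no call on either side. DYRK1A (-0.0046 on the log2 scale) was at 0.0565 with library totals, 0.15 with ribosomal protein scaling, 0.0753 after the minimum of 5 CPM, 0.0049 with limma-voom, 0.0040 with the replicate block, 0.0609 with the GC offset, and from -0.12 to 0.10 with libraries left out, being above 0 without untreated replicate 1 (0.0971), triptolide replicate 1 (0.0425) or triptolide replicate 2 (0.0211). SRPK1 was at 0.0353 with ribosomal protein scaling and from -0.25 to 0.0398 with libraries left out, the highest without triptolide replicate 1. With libraries left out, CLK4 ran from -0.0080, without untreated replicate 3, to 0.21, without triptolide replicate 1. Of the lists, SR-related proteins had 0 to 6 lower and 1 to 4 higher, SR proteins 1 to 3 lower, and DYRK partners 0 to 4 lower and 1 to 3 higher over the alternatives. The 6 and 4 lower came without both of those libraries, where 1841 of 15628 genes fell and 1950 rose.

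The replicate block gave 1523 genes higher and 856 lower, and ended the calls of TRA2B, PHLPP1 and NFATC1. Same-numbered libraries deviated together at r = 0.03, -0.04 and -0.44, so the numbers were not taken to pair the samples. DYRK1B rests on the fewest counts of the group, 96 to 179 per library.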
